A study of Mus musculus with 24 samples.

Results

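The response of the mouse duodenum to calcitriol, the hormonal form of vitamin D (1,25D3 in the labels), was measured by RNA-seq in 4 treated libraries against 4 libraries from vitamin D-deficient mice. The treated group (3xD) came from wild-type C57BL6J mice that received 3 injections of calcitriol at 1 ng/g body weight, 48, 24 and 6 h before the end of the experiment. The deficient group (minusD) came from wild-type C57BL6J mice listed with no treatment. The labels do not describe the deficient diet, the protocol text repeats the calcitriol injections for every sample, and 3 of the 4 deficient columns carry the name Vehicle. By the labels 2 of the 4 treated mice and 1 of the 4 deficient mice were female, and ages ran from 10 to 14 in the treated and 10 to 13 in the deficient group, in a unit that is not stated. Duodenum made up 8 of the 24 samples of a study whose title names targets of the vitamin D receptor along the intestine as its subject. All genes of the 8-column duodenum table with at least 1 FPKM (fragments counted per gene, scaled by transcript length and by library size) in 3 or more columns were described, which left 11734 of 21441 genes.

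Calcitriol enters cells and binds the vitamin D receptor, Vdr, a nuclear receptor that pairs with a retinoid X receptor on DNA and raises or lowers transcription of nearby genes. In the upper small intestine the receptor is known for raising the machinery of calcium absorption: the apical channel Trpv6 lets calcium in, the binding protein S100g (calbindin-D9k) carries it through the cytoplasm, and the pump Atp2b1 drives it out towards the blood. The hormone also raises Cyp24a1, the mitochondrial hydroxylase that inactivates it, which limits its own action.

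The 8 columns carry 2 kinds of name, and differences are given within both as well as over all libraries. Columns with serial numbers are treated 1 and deficient 1, 2 and 3. Columns with 4-digit numbers are 3xD5711A, 3xD5720A and 3xD5734A in the treated group and minusD5718A in the deficient group. Values per library keep the order treated 1, 3xD5711A, 3xD5720A and 3xD5734A, then minusD5718A and deficient 1, 2 and 3, and a difference within a naming set rests on a lone library on one side. Whole reads recovered from the FPKM values came to 13216445 to 18992969 in treated and 13054586 to 30191397 in deficient libraries, and each 4-digit library (at most 14528274 reads) was shallower than each serial one (at least 18992969 reads). Xist exceeded Ddx3y, a Y-linked gene, in 3 of 4 libraries with 4-digit names and in 0 of 4 with serial names, and the 2 treated and 1 deficient such libraries match the number of females in the labels.

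Transcripts of the stomach separated the 2 naming sets, not the groups. Summed FPKM of 16 stomach markers stood at 153, 9248, 8467 and 6305 in treated libraries, against 12480.0, 59.0, 225 and 46.8 in deficient ones. All 4 libraries with 4-digit names were high and all 4 serial ones low. Gkn1, a gastric mucosal protein, was listed at 0, 560.0, 421 and 321 FPKM in treated and at 557, 0.0282, 0 and 0.0258 FPKM in deficient libraries. Exocrine pancreas markers (15 genes) summed to between 1103 (3xD5734A) and 38520.0 FPKM in treated libraries and between 9278 and 61770.0 FPKM in deficient ones, with 3xD5734A apart from the rest. Pdx1, a transcription factor of the duodenum and pancreas, ran from 22.4 to 45.5 FPKM over the 8 libraries. In the 7-column ileum table Pdx1 did not exceed 0.346 FPKM. With pancreas transcripts present, Pdx1 alone does not establish duodenal identity. Fabp6, an ileal bile acid binding protein, ran from 0.926 to 281 FPKM, against 1985 to 10714 FPKM in the 7-column ileum table. The 8-column table named for the ileum held the same 171528 of 171528 values as the duodenum table and was not used. In bulk tissue, fewer cells of a type and less RNA per cell cannot be told apart.

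Reg3b, an antimicrobial lectin of enterocytes, singled out a library in each group. It stood at 2213, 3047, 109008 and 6774 FPKM in treated and at 935, 1484, 1955 and 39059 FPKM in deficient libraries. 3xD5720A and deficient 3 were the highest of their groups, and the same 2 libraries led their groups in Reg3g (36285 and 9588 FPKM). Lcn2, an iron-scavenging protein of inflamed epithelium, reached 265 FPKM in 3xD5720A and did not exceed 5.38 FPKM in any other treated library or 4.59 FPKM in any deficient one. Because both groups hold such a library, the results are also given without these 2 libraries further on.

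Cyp24a1, which inactivates calcitriol, was the only gene called higher in treated libraries by limma. It passed the filter on low values only through those libraries. It stood at 313, 64.9, 367 and 641 FPKM in treated libraries, against 0.418, 0.0185, 0.0112 and 0.0085 FPKM in deficient ones. Every treated library lay far above every deficient library, and among deficient libraries the 4-digit one was the highest. The recovered reads behind these values were 22750, 3332, 18297 and 34847 in treated and 21, 2, 1 and 1 in deficient libraries. Means were 346.5 ± 236.2 FPKM in treated and 0.114 ± 0.203 FPKM in deficient libraries (SD, n = 4 each). On the log2(FPKM + 1) scale the difference was 7.91 ± 0.59 (SE), with an adjusted p of 0.0034 by limma over all 11734 genes, and it understates the change because the deficient values are close to 0. Within serial columns the difference was 8.28 and within 4-digit columns 7.46. With the naming set as a covariate limma gave 7.87 ± 0.72 and an adjusted p of 0.0452; leaving out each library in turn gave 7.48 to 8.58, with adjusted p between 6.63e-06 and 0.0272. The call was not made by voom on recovered reads (adjusted p 0.201) or among 4-digit columns alone (adjusted p 0.389). Cyp24a1 lies on chromosome 2 at 170308208 to 170322645 on the minus strand (NCBIM37) and overlaps Pfdn4 on the other strand.

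The quantitative PCR panel named in the labels holds Cyp24a1 and 5 genes of calcium, metal and sugar-phosphate transport: S100g, Trpv6, Trpv5, Slc30a10 and Slc37a2. Of the 6 panel genes 5 passed the filter on low values, all 5 had a positive difference in both naming sets, and 1, Cyp24a1, passed limma, beside 0.00852% of all genes called higher. The groups of 3 of the 5 did not overlap (Cyp24a1, Trpv6 and Slc30a10), beside 1.99% of all genes with every treated library above every deficient one. The median difference of the 5 was 2.41, beside 0.011 over all genes, and it was 2.69 within serial and 0.90 within 4-digit columns. Since the labels single these genes out, their direction is not independent evidence.

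S100g, the cytoplasmic calcium carrier of the enterocyte, was by far the most abundant panel gene at 11457, 10419.6, 3146 and 11508 FPKM in treated libraries, against 3873, 1271, 3070.3 and 359.6 FPKM in deficient ones. All treated libraries but 3xD5720A, the one with the most Reg3b, were above every deficient library, and 3xD5720A lay below minusD5718A. The difference was 2.41 ± 0.75 (SE) with an adjusted p of 0.499 by limma, 3.35 within serial and 0.90 within 4-digit columns. The lowest deficient library, deficient 3, was the one with the most Reg3b in its group. Leaving out each library in turn moved the difference between 1.71 and 2.86.

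Trpv6, the apical calcium channel, stood at 5.10, 13.5, 9.72 and 62.5 FPKM in treated libraries, against 5.01, 0.147, 1.02 and 0.0479 FPKM in deficient ones. The groups did not overlap, but treated 1 and minusD5718A were nearly level. Within serial columns the gap was wide. Within 4-digit columns it was narrower, with 9.72 FPKM in 3xD5720A against 5.01 FPKM in minusD5718A, and 3xD5734A stood far above the others. The difference was 3.00 ± 0.76 (SE), with an adjusted p of 0.483 by limma, 2.18 within serial and 1.84 within 4-digit columns, from 327, 612, 427 and 3003 recovered reads in treated and 222, 14, 81 and 5 in deficient libraries. Its paralogue Trpv5, the calcium channel of the kidney tubule, was listed at 0.0178, 0, 0 and 0.0238 FPKM in treated and at 0.0258, 0, 0 and 0 FPKM in deficient libraries and did not reach the filter.

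Slc30a10, an apical exporter of manganese, stood at 112, 87.7, 91.5 and 102 FPKM in treated libraries, against 62.5, 51.7, 55.9 and 14.1 FPKM in deficient ones. The groups did not overlap, the treated libraries were close together, and deficient 3 was the lowest. Means were 98.31 ± 11.01 FPKM in treated and 46.07 ± 21.75 FPKM in deficient libraries (SD, n = 4 each), a difference of 1.26 ± 0.41 (SE) on the log2 scale with an adjusted p of 0.499 by limma, 1.67 within serial and 0.57 within 4-digit columns. Slc37a2, a sugar-phosphate and phosphate exchanger of the endoplasmic reticulum, stood at 130.3, 72.5, 37.0 and 129.96 FPKM in treated libraries, against 42.9, 30.6, 42.4 and 5.10 FPKM in deficient ones. Here 3xD5720A fell inside the deficient range and deficient 3 was again the lowest. The difference was 1.76 ± 0.66 (SE) with an adjusted p of 0.499 by limma, 2.69 within serial and 0.70 within 4-digit columns.

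**Figure D1:**
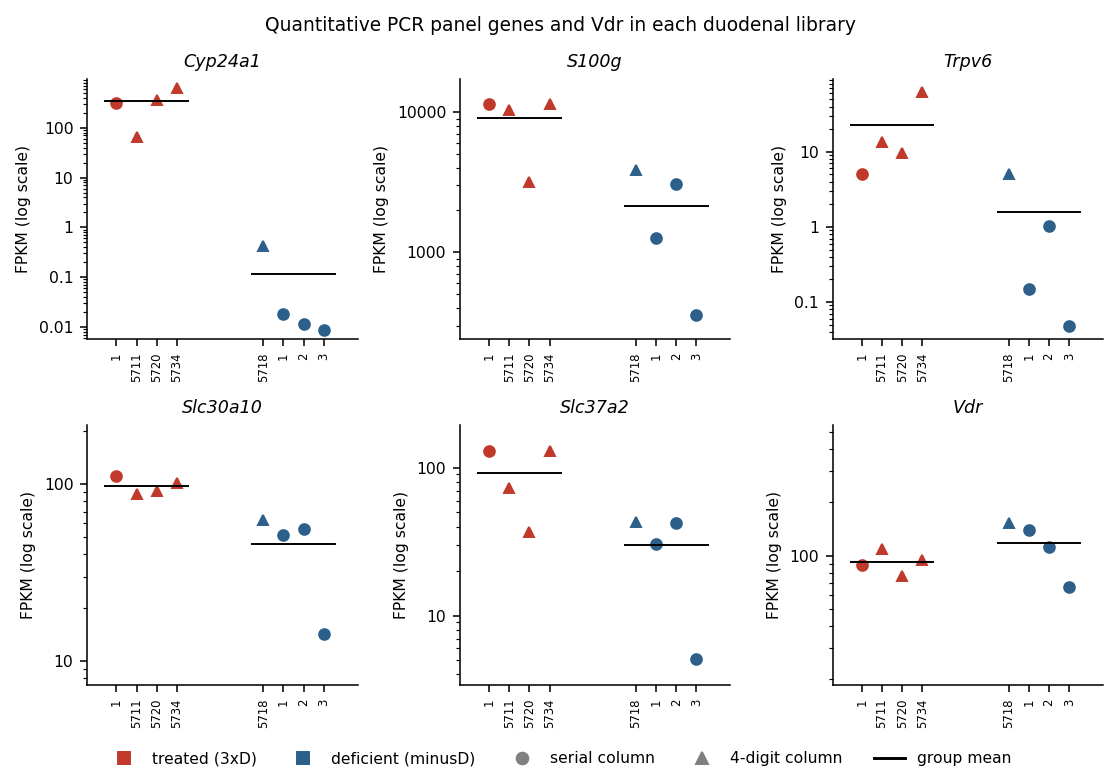
FPKM per library on a log axis for Cyp24a1, S100g, Trpv6, Slc30a10, Slc37a2 and Vdr, treated libraries left of deficient ones; circles are serial and triangles 4-digit columns, and a black line marks each group's mean. Cyp24a1 separates the groups by the widest gap, S100g and Slc37a2 overlap through 3xD5720A, and Vdr is not higher in treated libraries.

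The 250 bases upstream of the annotated start of 4 panel genes are shown because the receptor binds pairs of hexamers that resemble AGGTCA, and the genes can be compared by how many such hexamers lie close to their start. Sequences are from RefSeq (GRCm38.p6), 5′ to 3′ along the gene's strand, with capitals marking a hexamer on either strand. The hexamers searched were AGGTCA and the forms of it with G as the first letter, T as the third, or both. S100g (chrX:162964600-162964849, minus strand) has 3 hexamers, Trpv6 (chr6:41636406-41636655, minus strand) 2, Slc37a2 (chr9:37255739-37255988, minus strand) 1 and Slc30a10 (chr1:185454598-185454847, plus strand) 0.
S100g: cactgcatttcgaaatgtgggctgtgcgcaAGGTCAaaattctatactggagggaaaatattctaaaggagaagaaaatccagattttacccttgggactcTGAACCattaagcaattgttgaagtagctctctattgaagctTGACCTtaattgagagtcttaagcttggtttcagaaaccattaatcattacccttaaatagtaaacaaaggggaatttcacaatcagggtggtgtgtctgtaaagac
Trpv6: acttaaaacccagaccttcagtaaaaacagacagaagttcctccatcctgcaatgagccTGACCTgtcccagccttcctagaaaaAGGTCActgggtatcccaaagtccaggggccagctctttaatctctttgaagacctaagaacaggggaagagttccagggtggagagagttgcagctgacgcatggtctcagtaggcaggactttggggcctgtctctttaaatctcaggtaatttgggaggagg
Slc37a2: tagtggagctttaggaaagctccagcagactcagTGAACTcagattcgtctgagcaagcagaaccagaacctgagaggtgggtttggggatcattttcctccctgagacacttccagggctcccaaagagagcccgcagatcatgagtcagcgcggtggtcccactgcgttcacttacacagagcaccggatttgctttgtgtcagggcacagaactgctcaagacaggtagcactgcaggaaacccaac
Slc30a10: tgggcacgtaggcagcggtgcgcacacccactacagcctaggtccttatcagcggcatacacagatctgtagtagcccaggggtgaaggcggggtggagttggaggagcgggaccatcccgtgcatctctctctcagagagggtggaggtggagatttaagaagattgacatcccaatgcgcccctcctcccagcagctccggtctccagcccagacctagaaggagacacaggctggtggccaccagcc
Among 32851 mouse promoters of the same length, 38.6% hold at least 1 of these hexamers and 9.8% hold 2 or more. None of the 4 holds 2 hexamers on 1 strand with 3 bases between them, the spacing of the classical element, which 13 promoters (0.0396%) hold. A match is a description of letters, and receptor sites are known to lie far outside such windows.

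Vdr, the receptor itself, stood at 88.7, 108, 76.6 and 93.8 FPKM in treated libraries, against 153, 139, 112 and 66.7 FPKM in deficient ones. All deficient libraries but deficient 3 were above every treated one, and deficient 3 was below them all. The difference was −0.30 ± 0.25 (SE) with an adjusted p of 0.665 by limma, −0.19 within serial and −0.72 within 4-digit columns. Of the 17 genes of the receptor, its partners, coregulators and vitamin D metabolism, 12 passed the filter. Cyp24a1 was the 1 that limma called and the 1 whose groups did not overlap; 5 of the 12 were positive and the median was −0.082, beside 51.9% positive and a median of 0.011 over all genes. The partner Rxra averaged 6.69 FPKM in treated and 8.87 FPKM in deficient libraries, and Rxrb averaged 6.77 FPKM in treated and 6.56 FPKM in deficient libraries. Ncoa2, a p160 coactivator, averaged 3.61 FPKM in treated and 6.18 FPKM in deficient libraries (difference −0.64, −0.27 within serial and −0.96 within 4-digit columns), and its groups overlapped. Cyp27b1, the enzyme that makes calcitriol, was listed at no more than 0.115 FPKM in any treated and 0.0829 FPKM in any deficient library. A list of 16 vitamin D targets known from other tissues had 10 members past the filter, none with groups apart, 7 positive and a median of 0.12.

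Across the table the calls were few. limma called 1 gene higher (0.00852%) and 2 lower (0.017%) in treated libraries at an adjusted p under 0.05, or 0.0256% in either direction; voom on recovered reads, tested on 9377 genes, called 0 in either direction. At an unadjusted p under 0.05, 473 genes were higher (4.03%) and 630 lower (5.37%). The groups did not overlap in 234 higher genes (1.99%) and 279 lower genes (2.38%). Naming sets were no less apart: all 4-digit columns lay above all serial ones in 511 genes (4.35%) and below them in 362 (3.09%), and limma called 30 genes (0.256%) for naming set beside treatment. The sign of the difference was positive in both naming sets for 3590 genes (30.6%) and negative in both for 3410 (29.1%). Since naming set, depth, the Xist count and stomach transcripts moved together, their parts in these numbers cannot be told apart.

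Ap1g1 and BC023829 were the 2 genes that limma called lower with all libraries, and both passed the filter only through deficient libraries. Ap1g1, a subunit of the clathrin adaptor that sorts cargo at the trans-Golgi network, was listed at 0.0320, 0, 0 and 0.0598 FPKM in treated libraries, against 1.07, 1.05, 1.74 and 1.29 FPKM in deficient ones. BC023829, a gene on chromosome X, was listed at 0, 0.0816, 0 and 0 FPKM in treated libraries, against 1.08, 1.15, 1.37 and 0.944 FPKM in deficient ones. Both were at or near 0 in all 4 treated libraries and near 1 FPKM in all 4 deficient ones, from 5, 0, 0 and 7 against 116, 244, 335 and 328 recovered reads for Ap1g1 and from 0, 3, 0 and 0 against 39, 89, 88 and 80 for BC023829. The log2 differences were −1.15 ± 0.13 and −1.06 ± 0.12 (SE), each with an adjusted p of 0.0392 by limma; they were −1.18 and −1.10 within serial and −1.02 and −1.02 within 4-digit columns. Ap1g1 was not called when any 1 library was left out (adjusted p 0.0678 to 0.181 by limma). BC023829 was not called in the 5 such fits that tested it (adjusted p 0.0517 to 0.156 by limma), and without minusD5718A, deficient 1 or deficient 2 it was under the filter. Neither was called with the naming set as a covariate or a pseudocount of 0.1. Ap1g1 (chromosome 8, 112302454 to 112385258) overlaps Snord71, U6 and Gm17344, and BC023829 lies on chromosome X at 67712928 to 67730355. A 0 in this table need not mean that a gene was silent: Oaz1, which most cells use, was listed at 1.85, 0, 0 and 1.35 FPKM in treated and at 1.05, 2.56, 3.54 and 1.137 FPKM in deficient libraries.

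A second rule asked for at least a 2-fold difference, on the log2(FPKM + 1) scale, in the same direction within both naming sets and for groups that do not overlap. It found 6 genes higher (0.0511%): Cyp24a1, Trpv6, Zfp131, Pdlim2, Sbno1 and Rab30. It found 4 lower (0.0341%): Ap1g1, BC023829, Snord17 and PGC-1v. Separation of the groups in the genes found restates the rule. Without the condition on overlap, 12 genes were 2-fold higher in both sets (0.102%), 23 were 2-fold lower (0.196%) and 18 were 2-fold apart in opposite directions (0.153%). The plot of the 2 within-set differences shows all of these genes beside stomach and pancreas markers.

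Zfp131, a zinc finger transcription factor, stood at 6.55, 5.48, 5.83 and 5.89 FPKM in treated libraries, against 1.51, 2.35, 1.69 and 3.39 FPKM in deficient ones. Its lowest treated library was clearly above its highest deficient one, deficient 3. Means were 5.94 ± 0.44 FPKM in treated and 2.24 ± 0.85 FPKM in deficient libraries (SD, n = 4 each), a difference of 1.13 ± 0.18 (SE), with an adjusted p of 0.23 by limma, 1.15 within serial and 1.42 within 4-digit columns. It passed limma with array weights (adjusted p 0.0262) and without deficient 3 (adjusted p 0.0267). Pdlim2, a PDZ-LIM adaptor known for promoting the breakdown of nuclear NF-kB, stood at 44.7, 23.8, 36.2 and 52.2 FPKM in treated libraries, against 10.6, 11.1, 15.3 and 18.7 FPKM in deficient ones. No library overlapped, with 3xD5711A the lowest treated one, and the difference of 1.41 ± 0.26 (SE) had an adjusted p of 0.451 by limma, 1.54 within serial and 1.65 within 4-digit columns.

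Sbno1, a strawberry notch homologue, stood at 5.93, 3.60, 3.89 and 6.97 FPKM in treated libraries, against 0.0125, 1.30, 1.07 and 1.98 FPKM in deficient ones. The groups were apart with minusD5718A near 0, and the difference of 1.61 ± 0.33 (SE) had an adjusted p of 0.479 by limma, 1.52 within serial and 2.48 within 4-digit columns. The 4-digit difference rests on minusD5718A, with 2 recovered reads against 448, 305 and 745 in deficient 1, 2 and 3. As for Oaz1 above, such a value near 0 need not give the level of the gene. Rab30, a small GTPase of the Golgi, stood at 20.4, 14.8, 91.2 and 22.3 FPKM in treated libraries, against 14.6, 11.3, 9.56 and 5.27 FPKM in deficient ones. 3xD5720A stood far above the others, 3xD5711A was barely above minusD5718A, and the difference was 1.46 ± 0.52 (SE) with an adjusted p of 0.499 by limma, 1.198 within serial and 1.06 within 4-digit columns.

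Snord17, a small nucleolar RNA that lies within Snx5 on the same strand, was listed at 0 in all 4 treated libraries and at 1.82, 0.844, 2.03 and 2.31 FPKM in deficient ones, from as few as 1, 1, 2 and 3 reads, with an adjusted p of 0.0822 by limma. It passed the filter only through deficient libraries. PGC-1v, named in the table without further annotation, stood at 0.530, 1.08, 0.0099 and 0.0636 FPKM in treated libraries, against 3.25, 4.02, 2.96 and 1.78 FPKM in deficient ones. Its groups were apart, and the difference of −1.52 ± 0.27 (SE) had an adjusted p of 0.407 by limma, −1.31 within serial and −1.70 within 4-digit columns.

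**Figure D2:**
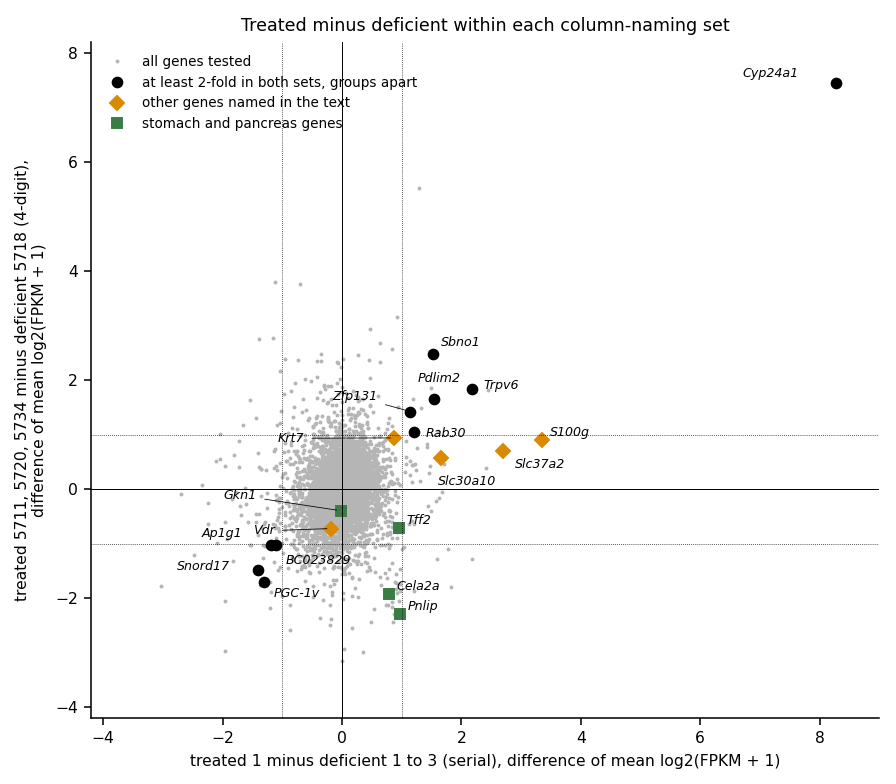
Treated minus deficient difference of log2(FPKM + 1) within serial columns (x axis) and within 4-digit columns (y axis) for all 11734 genes in grey; dotted lines mark 1, black points the genes of the 2-fold rule, orange diamonds S100g, Slc30a10, Slc37a2, Vdr and Krt7, and green squares stomach and pancreas markers. Cyp24a1 lies alone at the upper right, S100g and Slc37a2 lie higher in serial than in 4-digit columns, and Pnlip and Cela2a lie right of 0 and below it.

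Among genes with a mean of at least 10 FPKM, 5 in each direction had the smallest p with groups apart and the same sign in both naming sets. Since this choice asked for groups apart, their separation restates it and is not independent evidence. The higher ones were Cyp24a1 and Pdlim2, both described above, and Krt7, Ifrd1 and Orai1. Krt7, a keratin of simple epithelia, stood at 48.2, 56.6, 55.7 and 74.0 FPKM in treated libraries, against 31.6, 23.9, 29.8 and 24.2 FPKM in deficient ones. The gap between the groups exceeded the spread of the deficient libraries, and the means were 58.6 ± 10.9 FPKM in treated and 27.4 ± 3.93 FPKM in deficient libraries (SD, n = 4 each). The difference was 1.07 ± 0.15 (SE) with an adjusted p of 0.154 by limma, 0.88 within serial and 0.94 within 4-digit columns.

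Ifrd1, an interferon-related regulator named for its role in differentiation, stood at 108, 86.0, 103 and 85.9 FPKM in treated libraries, against 66.1, 44.7, 50.0 and 43.0 FPKM in deficient ones. The groups were apart, and the difference of 0.91 ± 0.15 (SE) was larger within serial (1.22) than within 4-digit columns (0.46), with an adjusted p of 0.394 by limma. Orai1, the pore subunit of store-operated calcium entry, stood at 22.7, 20.4, 26.3 and 27.7 FPKM in treated libraries, against 14.7, 12.8, 14.7 and 16.2 FPKM in deficient ones. Both groups were tight, and the difference of 0.69 ± 0.12 (SE) was 0.62 within serial and 0.71 within 4-digit columns, with an adjusted p of 0.408 by limma. Orai1 overlaps Kdm2b on the other strand.

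The 5 lower genes were Shroom3, 9130404H23Rik, Ceacam20, Rhebl1 and Mavs. Shroom3, an actin-binding protein of apical constriction, stood at 18.6, 20.2, 14.2 and 17.0 FPKM in treated libraries, against 25.5, 27.0, 30.7 and 24.4 FPKM in deficient ones. Its groups were apart in every library, by −0.60 ± 0.13 (SE), with −0.53 within serial and −0.56 within 4-digit columns and an adjusted p of 0.479 by limma. Ceacam20, an adhesion molecule of intestinal microvilli, stood at 39.0, 29.4, 25.0 and 26.0 FPKM in treated libraries, against 47.0, 47.5, 43.1 and 51.5 FPKM in deficient ones. Treated 1 was the closest to the deficient group, and the difference was −0.27 within serial and −0.79 within 4-digit columns. Mavs, the mitochondrial adaptor of RNA sensing, stood at 9.48, 9.55, 11.01 and 8.01 FPKM in treated libraries, against 16.9, 18.5, 20.5 and 11.9 FPKM in deficient ones. Its difference of −0.75 ± 0.17 (SE) was −0.74 within serial and −0.78 within 4-digit columns. 9130404H23Rik (−0.41 within serial, −0.60 within 4-digit columns) and Rhebl1, a Rheb-like small GTPase (−0.29 and −0.82), differed in the same direction. Of the 10 genes, limma called Cyp24a1 alone.

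**Figure D3:**
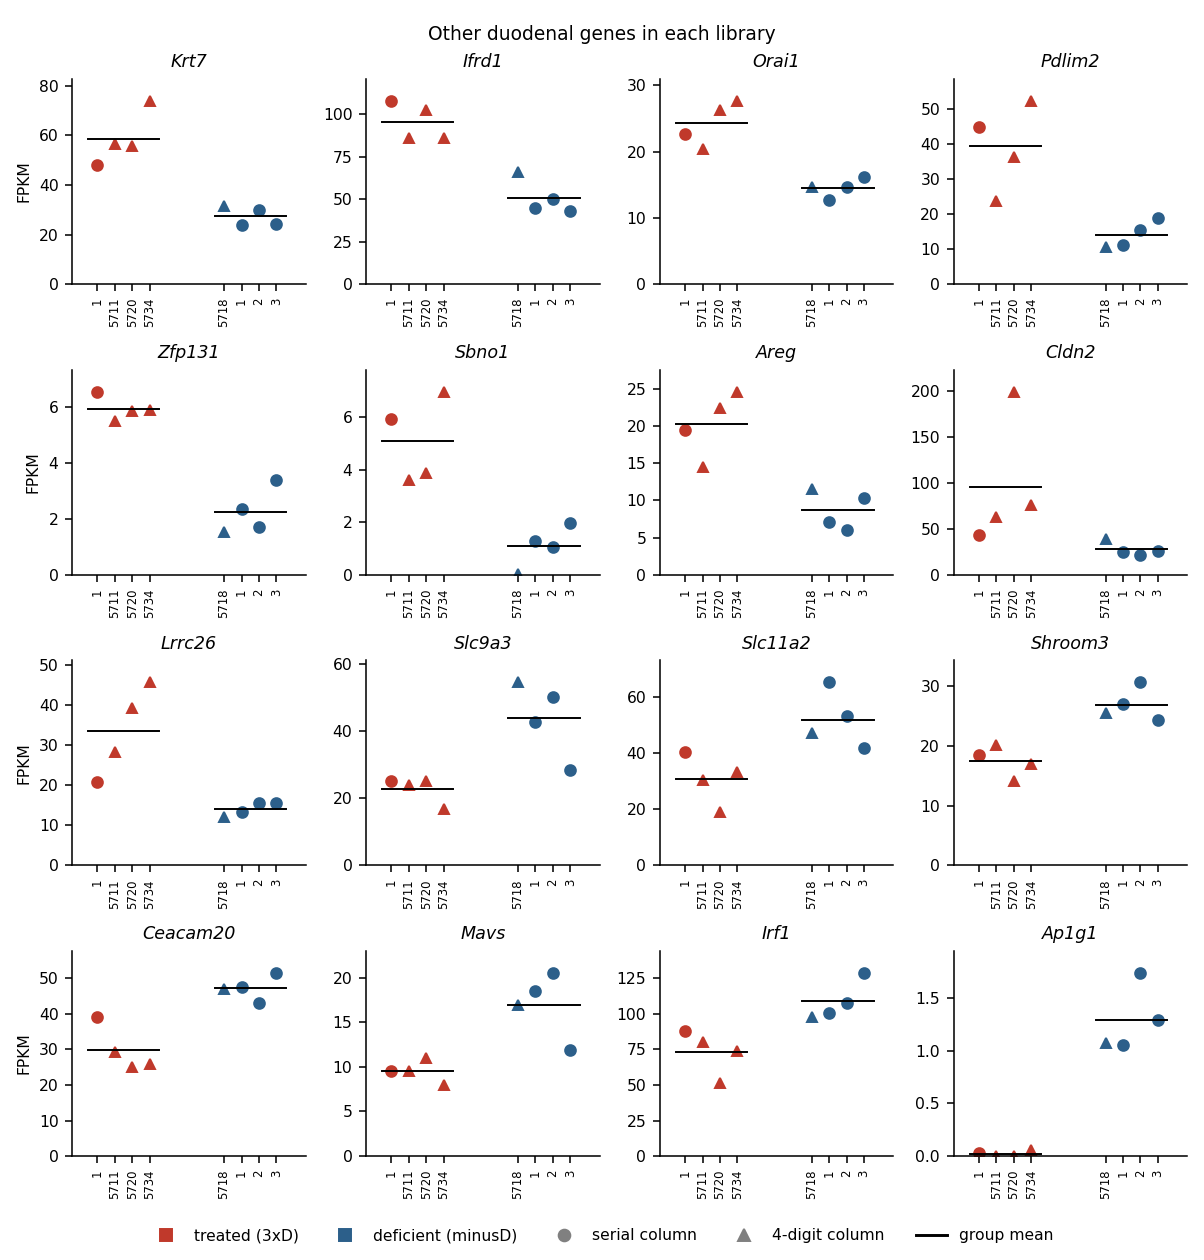
FPKM per library on linear axes from 0 for 16 named genes, treated libraries left of deficient ones, with circles for serial and triangles for 4-digit columns. Krt7, Orai1, Zfp131 and Pdlim2, chosen by rules that ask for groups apart, separate the groups within both naming sets. Lrrc26 and Slc9a3 separate them more widely among triangles.

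No member of the lists that follow passed limma, and the counts are of groups apart, read beside 1.99% higher and 2.38% lower over all genes, and of signs. At an unadjusted p under 0.05, beside 4.03% higher and 5.37% lower over all genes, no list had more than 3 members higher, and the most lower were 7 of 24 in the interferon list, 6 of 16 among T and NK cell markers and 6 of 11 among B cell markers. In the short list of sugar-phosphate transporters Slc37a1, Slc37a2 and Slc37a4 were higher and Slc37a3 lower at this threshold. Of 17 genes of calcium entry, buffering, extrusion and sensing, 11 passed the filter. Groups of 3 were apart, all higher (Orai1, Trpv6 and Orai3), and 7 of 11 were positive and 0 negative in both naming sets. The median was 0.16, 0.16 within serial and 0.15 within 4-digit columns. Atp2b1, the basolateral calcium pump, stood at 151, 96.0, 68.9 and 115 FPKM in treated libraries, against 114, 58.5, 68.2 and 42.1 FPKM in deficient ones. Its groups overlapped and its sets went opposite ways, with 1.44 within serial and −0.32 within 4-digit columns. Differences of the store sensors Stim1 (0.083) and Stim2 (0.13) and of the calmodulins Calm2 (0.16) and Calm3 (−0.072) were small beside those of Trpv6, S100g and Orai1.

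Zinc and manganese transporters and metallothioneins had 19 of 19 genes past the filter, with 3 groups apart, all higher, 13 positive and a median of 0.037. Slc30a1, the plasma membrane zinc exporter, stood at 11.8, 11.2, 13.3 and 12.8 FPKM in treated libraries, against 9.49, 8.802, 9.41 and 8.04 FPKM in deficient ones. It was a small difference with tight groups (0.42; 0.40 within serial and 0.35 within 4-digit columns). Slc39a8, an importer of zinc and manganese, stood at 3.49, 4.05, 12.9 and 3.76 FPKM in treated libraries, against 3.17, 2.59, 2.69 and 2.88 FPKM in deficient ones. The high value was in 3xD5720A, and the other treated libraries were just above the deficient ones. The zinc buffer Mt1 stood at 269, 493, 2468 and 722 FPKM in treated libraries, against 229, 339, 613 and 229 FPKM in deficient ones; the highest value was again in 3xD5720A, and the difference was −0.43 within serial and 2.06 within 4-digit columns. The manganese and zinc importer Slc39a14 averaged 69.7 FPKM in treated and 70.6 FPKM in deficient libraries.

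For iron, 12 of 13 genes passed the filter, 1 had groups apart, lower, and 0 were positive and 3 negative in both naming sets. Slc11a2, the apical importer of ferrous iron, stood at 40.4, 30.3, 19.1 and 33.3 FPKM in treated libraries, against 47.1, 65.2, 53.0 and 41.7 FPKM in deficient ones. Its groups were just apart, by −0.76, with −0.37 within serial and −0.79 within 4-digit columns. Cybrd1, the duodenal ferric reductase, overlapped between the groups and went opposite ways in the sets (0.17 within serial and −1.97 within 4-digit columns). Slc40a1, the basolateral exporter, averaged 156.3 FPKM in treated and 168.1 FPKM in deficient libraries. Phosphate transporters and alkaline phosphatases had 6 of 9 genes past the filter, none apart and 4 positive, with a median of 0.35 within serial and −0.43 within 4-digit columns. Alpi, the intestinal alkaline phosphatase, averaged 1823 FPKM in treated and 1699 FPKM in deficient libraries. Among the 4 sugar-phosphate transporters, 0 had groups apart, and Slc37a4, the glucose-6-phosphate carrier, averaged 24.7 FPKM in treated and 12.8 FPKM in deficient libraries, with −0.29 within serial and 1.83 within 4-digit columns.

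Ion and water transport had 24 of 29 genes past the filter, 1 with groups apart higher and 2 lower, 5 positive and 10 negative in both naming sets, and a median of 0.009. Lrrc26, an auxiliary subunit of BK potassium channels in secretory cells, stood at 20.8, 28.2, 39.2 and 45.6 FPKM in treated libraries, against 12.1, 13.3, 15.6 and 15.6 FPKM in deficient ones. The groups were apart, and the difference of 1.13 ± 0.23 (SE; adjusted p 0.479 by limma) was 0.47 within serial and 1.53 within 4-digit columns. Slc9a3, the apical sodium-proton exchanger NHE3, stood at 25.2, 24.0, 25.0 and 16.7 FPKM in treated libraries, against 54.5, 42.6, 50.0 and 28.3 FPKM in deficient ones. 3xD5734A and deficient 3 were the low ones of their groups, and the difference of −0.90 ± 0.21 (SE; adjusted p 0.479 by limma) was −0.62 within serial and −1.30 within 4-digit columns. Cnnm4, a basolateral magnesium transporter, stood at 21.1, 19.6, 15.1 and 19.95 FPKM in treated libraries, against 25.9, 27.4, 30.7 and 23.6 FPKM in deficient ones, with groups just apart.

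Of 16 claudins and tight junction proteins past the filter, 1 had groups apart higher and 2 lower, 8 were positive and the median was −0.002. Cldn2, a claudin that forms cation and water pores, stood at 42.8, 62.4, 199 and 75.4 FPKM in treated libraries, against 39.2, 24.9, 21.9 and 26.3 FPKM in deficient ones. 3xD5720A was the highest, and treated 1 was only just above minusD5718A, but within each naming set the treated libraries were higher (0.79 within serial and 1.30 within 4-digit columns). Pooled, the difference was 1.51 ± 0.42 (SE), with an adjusted p of 0.499 by limma. Cgn, cingulin of the junctional plaque, averaged 13.0 FPKM in treated and 19.9 FPKM in deficient libraries, and Ocln, occludin, averaged 17.8 FPKM in treated and 21.1 FPKM in deficient libraries. Both had groups apart. Cldn12, a claudin tied to calcium permeation, averaged 12.8 FPKM in treated and 11.8 FPKM in deficient libraries, and Cldn15 averaged 403.8 FPKM in treated and 430.0 FPKM in deficient libraries, with groups that overlapped.

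Of the EGF family, 9 of 11 genes passed the filter and the groups of 2, Areg and Errfi1, were apart, both higher. Areg, the ligand amphiregulin, stood at 19.5, 14.4, 22.4 and 24.6 FPKM in treated libraries, against 11.5, 7.03, 6.01 and 10.3 FPKM in deficient ones. No library overlapped, and the difference of 1.141 ± 0.22 (SE; adjusted p 0.479 by limma) was 1.25 within serial and 0.74 within 4-digit columns. Errfi1, an intracellular inhibitor of the EGF receptor, stood at 21.3, 22.3, 40.7 and 33.4 FPKM in treated libraries, against 16.2, 15.1, 14.0 and 9.29 FPKM in deficient ones. The receptors stood lower on average: Erbb2 averaged 17.7 FPKM in treated and 24.1 FPKM in deficient libraries, and Erbb3 stood at 19.7, 27.6, 28.5 and 12.9 FPKM in treated libraries, against 52.9, 52.4, 47.0 and 18.6 FPKM in deficient ones, with overlap through deficient 3. Egfr averaged 2.33 FPKM in treated and 2.60 FPKM in deficient libraries. Among 6 simple keratins Krt7 was the 1 with groups apart; Krt18 averaged 142.7 FPKM in treated and 110.3 FPKM in deficient libraries, and the abundant Krt8 averaged 1478 FPKM in treated and 1502 FPKM in deficient libraries.

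The enterocyte, enteroendocrine and proliferation lists had no member with groups apart. Enterocyte markers summed to 38640.0 to 49370.0 FPKM in treated and 33490.0 to 43760.0 FPKM in deficient libraries, and the list's median was 0.18. The 14 enteroendocrine markers had a median of 0.21, with 0 groups apart, 11 positive and 8 positive in both naming sets; Neurod1, a factor of hormone cells, averaged 4.01 FPKM in treated and 2.87 FPKM in deficient libraries, and Pyy, an appetite peptide, averaged 3.90 FPKM in treated and 1.65 FPKM in deficient libraries. Proliferation genes had 21 of 22 past the filter, 0 with groups apart, 16 positive and 14 positive against 2 negative in both naming sets, with a median of 0.068 (0.14 within serial and 0.28 within 4-digit columns). Rrm2, a ribonucleotide reductase subunit, stood at 18.4, 32.6, 86.6 and 31.5 FPKM in treated libraries, against 18.1, 23.1, 15.3 and 17.4 FPKM in deficient ones, with the highest value in 3xD5720A. The mitotic genes Cdk1 (0.36 within serial and 0.41 within 4-digit columns), Birc5 (0.30 and 0.55) and Aurkb (0.32 and 0.62) had positive differences in both naming sets, with groups that overlapped, while Mki67 averaged 10.2 FPKM in treated and 11.3 FPKM in deficient libraries. Antimicrobial and microbe-sensing genes (12 of 19 past the filter) had 0 groups apart and 6 positive differences, and Reg3b, Reg3g and Lcn2 went opposite ways in the 2 sets.

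In fat absorption, 17 of 18 genes passed the filter and 1, Dgat2, had groups apart. Dgat2, a triglyceride-forming acyltransferase, stood at 386, 524, 537 and 703 FPKM in treated libraries, against 221, 378, 357 and 239 FPKM in deficient ones. Treated 1 was level with the top of the deficient range, and the difference of 0.85 was 0.28 within serial and 1.39 within 4-digit columns. Fatty acid oxidation genes were positive in 17 of 19, but in both naming sets in 5, so their median of 0.21 was 0.048 within serial and −0.047 within 4-digit columns. Cholesterol synthesis was positive in 4 of 19, with a median of −0.19 that was −0.27 within serial and 0.26 within 4-digit columns; Hmgcs1, its synthase of HMG-CoA, averaged 11.5 FPKM in treated and 19.1 FPKM in deficient libraries. None of the oxidation or cholesterol genes had groups apart. Drug-metabolizing genes (20 of 23 past the filter) had a median of 0.008; Cyp3a11, a drug- and bile acid-oxidizing enzyme, stood at 553, 781, 1037 and 875 FPKM in treated libraries, against 801, 452, 296 and 83.0 FPKM in deficient ones. The 4-digit deficient library lay inside the treated range, so that the difference was 1.30 within serial and 0.15 within 4-digit columns. Clock genes were positive in 11 of 14, with a median of −0.096 within serial and 0.48 within 4-digit columns.

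**Figure D4:**
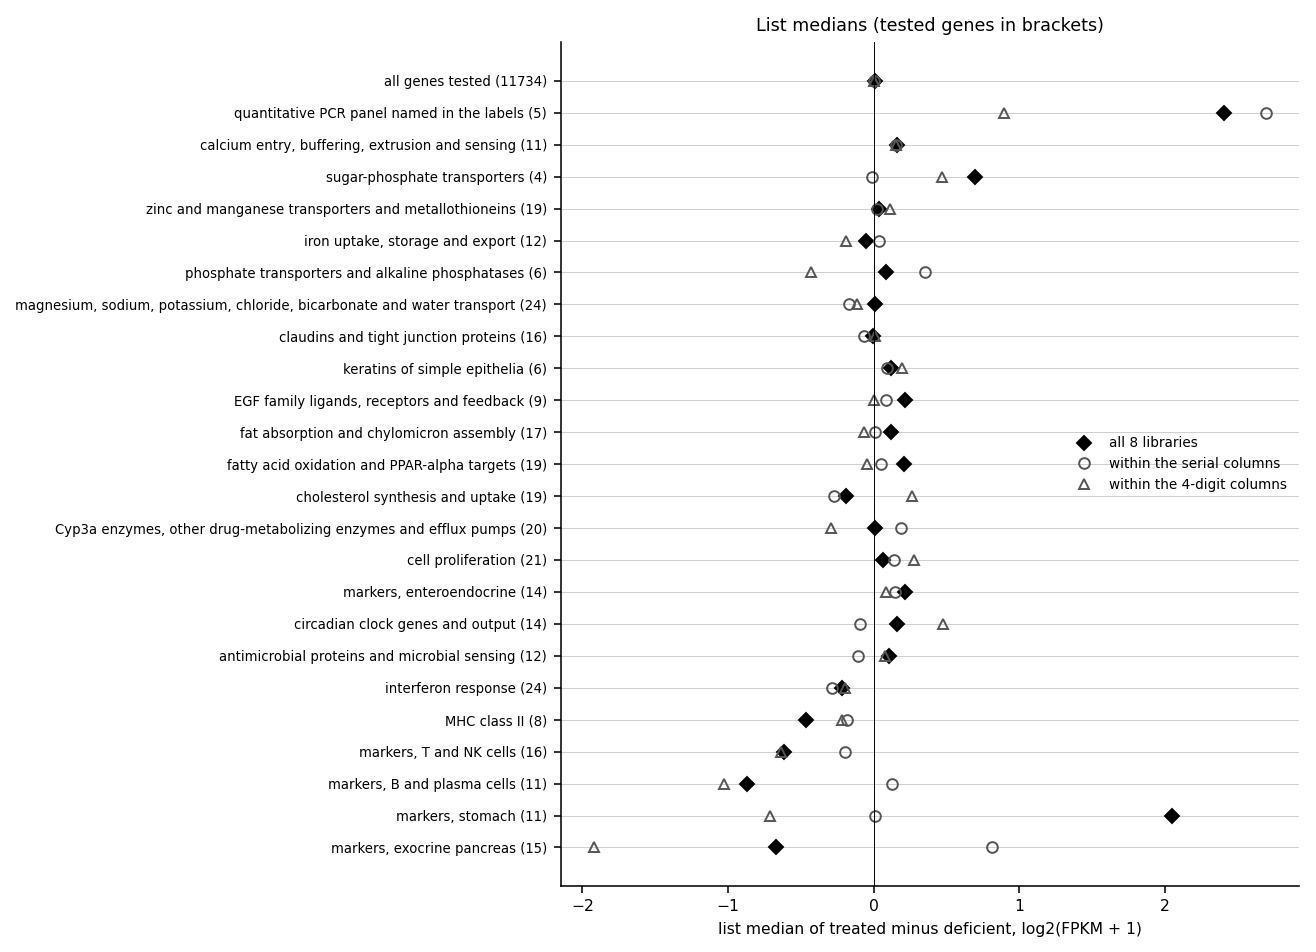
Median treated minus deficient difference of log2(FPKM + 1) per gene list, over all libraries (diamonds), within serial columns (open circles) and within 4-digit columns (open triangles). The panel, the interferon response and T and NK cell markers keep 1 sign in all 3, while stomach, pancreas, phosphate, cholesterol and clock lists change sign between the sets or against the pooled value.

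Interferon response genes, Irf1 among them, stood lower in treated libraries within both naming sets in 17 of 24 members. Of 26 genes 24 passed the filter; 0 had groups apart higher and 5 lower, among them Irf1, Stat2 and Nlrc5, and 0 were positive and 17 negative in both naming sets, beside 29.1% negative in both over all genes. The median was −0.21, with −0.29 within serial and −0.20 within 4-digit columns. Irf1, an interferon-induced activator, stood at 87.6, 80.0, 51.3 and 73.7 FPKM in treated libraries, against 97.9, 101, 108 and 129 FPKM in deficient ones, with −0.35 within serial and −0.54 within 4-digit columns. Effector genes of the same list stood close together: Isg15 averaged 60.7 FPKM in treated and 62.3 FPKM in deficient libraries, and Ifit1 52.0 FPKM in treated and 50.4 FPKM in deficient libraries.

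Over all libraries, the medians of lymphocyte markers were negative as well. T and NK cell markers had 16 of 19 genes past the filter, 0 positive, 11 negative in both naming sets, 2 with groups apart lower (Cd2 and Zap70) and a median of −0.61, with −0.19 within serial and −0.64 within 4-digit columns. Their summed FPKM was 407, 265, 150.5 and 220 in treated libraries, against 287, 422, 292 and 860 in deficient ones, so the ranges overlapped and deficient 3 was the highest. B and plasma cell markers (11 of 14 past the filter) had a median of −0.87, but 0.13 within serial and −1.03 within 4-digit columns, and summed to 51.9 to 681 FPKM in treated and 143 to 1442 FPKM in deficient libraries. MHC class II genes (8 of 9 past the filter) were positive in 0 of 8 and negative in both sets in 5, with a median of −0.46 and sums of 409 to 1094 FPKM in treated and 788 to 2325 FPKM in deficient libraries. H2-DMb2, a chaperone of peptide loading, was the 1 member with groups apart, at 5.18, 3.51, 1.38 and 4.29 FPKM in treated libraries, against 6.75, 5.93, 6.38 and 6.19 FPKM in deficient ones. The part of lymphocytes in the interferon difference was not tested.

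**Figure D5:**
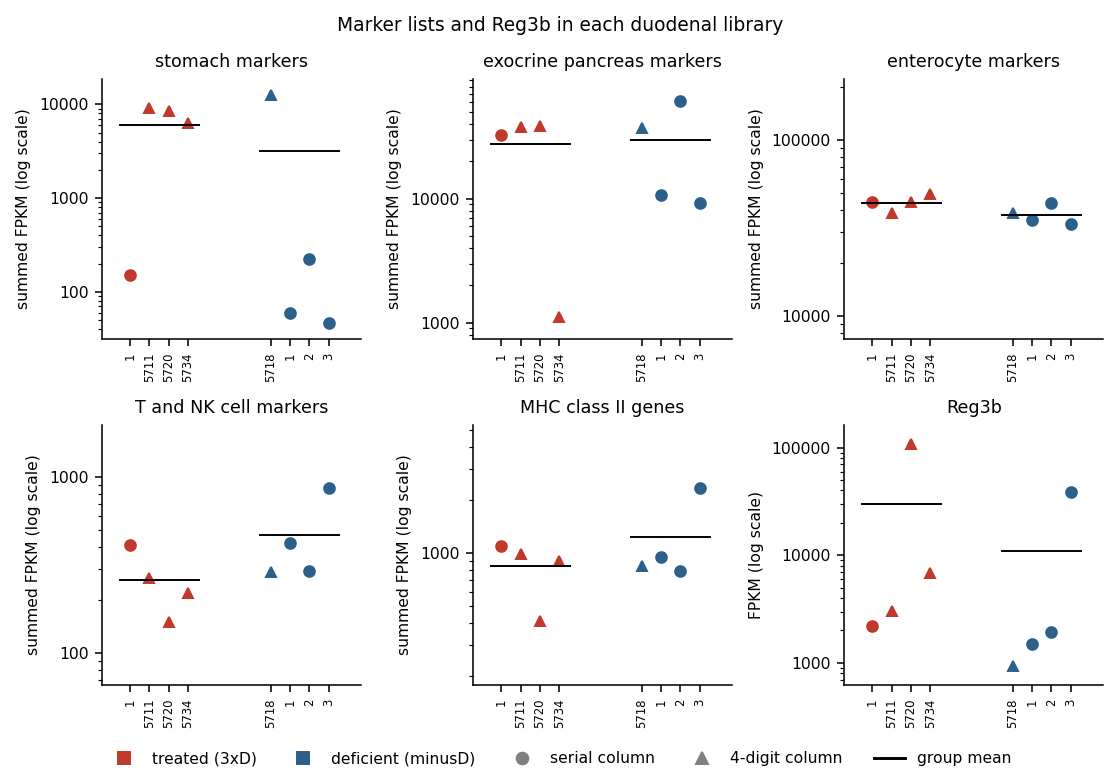
Summed FPKM of marker lists, and FPKM of Reg3b, per library on a log axis, treated libraries left of deficient ones, with circles for serial and triangles for 4-digit columns. Stomach markers follow the column names, pancreas markers drop in 3xD5734A, and deficient 3 is the highest deficient library in T and NK, MHC class II and Reg3b values.

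Without 3xD5720A and deficient 3, the libraries highest in Reg3b, an exclusion chosen after the data were seen, 3 treated and 3 deficient libraries remained and limma tested 11532 genes. It then called 3 genes higher, Cyp24a1 (7.71, adjusted p 0.0269), Ache, acetylcholinesterase (1.40, adjusted p 0.0269), and Zfp131 (1.30, adjusted p 0.0478), and 6 lower, among them Il15ra, Trim24, Camk1d and Sema6a. Of these 11532 genes, the 2-fold rule found 19 higher, 5 of them among the 6 found with all libraries, and 35 lower, 3 of them among the earlier 4. Groups of 3 libraries are more easily apart than groups of 4, so these counts cannot be set against those with all libraries. S100g (2.17) and Slc37a2 (1.47) met the rule here, as they did without 3xD5720A alone. Their groups had overlapped through 3xD5720A, so leaving it out removed the overlap by itself, and meeting the rule is no added evidence. Neither S100g nor Slc37a2 passed limma (adjusted p 0.137 and 0.124). Ap1g1 (adjusted p 0.0952) and BC023829 (0.0701) were no longer called. The T and NK median shrank to −0.18 and that of MHC class II turned to 0.22, while the interferon median was −0.17 and that of the panel 2.17.

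Some of the genes added by this exclusion, singled out after their values were seen, belong to recognisable families. Among them were alpha-defensins of Paneth cells, none past limma (adjusted p 0.177 for Defa5 and 0.0708 for Defa20). Defa5 stood at 174, 213, 196 and 197 FPKM in treated libraries, against 96.0, 49.3, 117 and 808 FPKM in deficient ones, and Defa20, Defa21 and Defa22 had the same shape, with deficient 3 above or among the treated libraries. These genes are near-identical copies, and reads may be divided among them. Over all libraries the Paneth marker list (5 of 7 genes past the filter) had 0 groups apart, 1 positive difference and a median of −0.088, and the Defa5 mean was 195 FPKM in treated and 268 FPKM in deficient libraries. Srebf1, a regulator of fatty acid synthesis, stood at 3.77, 10.2, 3.42 and 6.07 FPKM in treated libraries, against 16.9, 13.9, 14.1 and 4.10 FPKM in deficient ones. Slc4a7, a sodium bicarbonate cotransporter, stood at 18.4, 16.5, 12.8 and 2.24 FPKM in treated libraries, against 54.6, 80.2, 60.5 and 8.10 FPKM in deficient ones, and was lower in treated libraries in both sets (−0.88 within serial and −2.59 within 4-digit columns). In each of these genes deficient 3 departed from the other deficient libraries. The choice itself favours that pattern, since the genes were added by leaving out deficient 3 and 3xD5720A. Il15ra, a receptor chain for interleukin-15, was listed at 0.0285, 0.241, 0 and 0.273 FPKM in treated libraries, against 2.95, 3.11, 3.59 and 0 FPKM in deficient ones, and Trim24, a nuclear receptor cofactor, at 0 in 4 treated libraries and at 3.53, 2.62, 2.36 and 0 FPKM in deficient ones. Il15ra and Trim24 passed the filter only through deficient libraries. Chd4, a chromatin remodeller that most cells use, was listed at 0, 0.253, 0 and 0 FPKM in treated and 3.50, 11.9, 3.59 and 0 FPKM in deficient libraries, so values of 0 in such genes give no level.

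Duodenum and colon columns with the same number were differenced, which presumes that a number stands for the same mouse. The labels do not state this. They list deficient mice at ages 13, 10, 13 and 10 for the colon but 12, 10, 13 and 10 for the duodenum. The treated minus deficient response of the duodenum differed from that of the colon in 0 of 11365 genes (0%) by limma. At an unadjusted p under 0.05 by limma there were 329 genes (2.89%). Slc37a2 came closest: the duodenal response was larger by 2.47 ± 0.28 (SE), with an adjusted p of 0.0963 and a colon difference of −0.71, and it passed when genes under 5 FPKM were left out (adjusted p 0.0483). For S100g the duodenum minus colon difference was −2.52 ± 0.45 (SE; adjusted p 0.749 by limma), with a colon difference of 4.93. For Slc30a10 it was −1.82 ± 0.39 (SE; adjusted p 0.9995 by limma), with a colon difference of 3.08. For Cyp24a1 it was 1.63 ± 1.32 (SE; adjusted p 0.9995 by limma), with a colon difference of 6.28, so that neither organ's response could be ranked above the other's.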

How the data were processed

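Poly(A)-selected RNA from duodenum was made into libraries with the NEBNext Ultra II kit, whose strand setting is not stated, and mapped to the mouse genome in CLC Genomics Workbench, per the labels' protocols. The submitters' processing notes also name kallisto 0.45.0, DESeq 1.14.0, DESeq2 and mm9, without roles. The deposited values are FPKM per gene, made by the authors. FPKM tables of 8 libraries were used as deposited, and a table of 7 of them, which differs by a constant per column (0.9979 to 1.0014), served as an alternative. Columns named Vehicle were taken as the deficient group. Columns carry no replicate number of the labels. Within each group no pair of samples has the same age and sex in the labels, so each library was taken as a separate mouse. The p-values rest on the spread between libraries of a group, which includes any difference between the naming sets. The number of per-sample columns left unmapped was 0.

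Genes with at least 1 FPKM in 3 or more columns were tested as log2(FPKM + 1), a scale that understates the change of low genes, with limma 3.58.1 (R 4.3.3; moderated, two-sided, Benjamini-Hochberg adjustment over all genes tested, threshold 0.05), treated minus deficient, without covariates. The duodenum minus colon test used differences of number-matched columns. Low FPKM values are whole multiples of 1 read: reads were recovered, within a tolerance of 0.0001, for 83.1% of 17211 genes above 0 in 2 or more columns (79.9% of genes past the filter), and voom on these reads was run as an alternative. Depth of the recovered reads limits the precision of low genes, and they cover counting error only. Values and reads were tabulated in Python 3.11.15 (pandas 2.3.3, numpy 2.4.6) and drawn with matplotlib 3.10.9. The fits and the read recovery were tested on simulated data.

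Genes were named by rule: the panel and Vdr, every gene past limma, up to 10 per direction at least 2-fold apart in both naming sets with groups apart, the 5 per direction with the smallest p among genes of at least 10 FPKM on average with the same sign in both sets and groups apart, and up to 3 per list; others are described from the lists, and those singled out afterwards are said to be. Single values of some list members are not reported here. The members and lists were chosen with earlier results of these data known. Positions are from GENCODE vM1 (NCBIM37), and promoters, found for 14 of 22 genes named outside the lists, from RefSeq (GRCm38.p6). Reads of overlapping genes (S100g with Ctps2, Slc30a10 with Gm2061, Slc37a2 with Gm10177, besides those named above) and of near-identical families (Defa, Mt, Reg, H2) may be divided uncertainly, and 25 gene symbols had been turned into dates. Alternatives were other pseudocounts, filters and scalings, covariates, weights, the naming sets alone, and each library left out.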

Additional observations from a re-analysis of the deposited data

Results flagged for a closer look

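In 29 of 256 groups of 4 libraries tested (85 genes and 43 lists, treated and deficient), 1 library stood far from the other 3. The cut-off gives about 1 in 20 by chance for independent, normally distributed values. Genes were tested as unlogged FPKM and many are also members of the lists, so 29 of 256 cannot be read against that rate. Among panel and called genes, Cyp24a1 was 0.418 FPKM in minusD5718A, against 0.0085 to 0.0185 FPKM in the other deficient libraries, BC023829 was 0.0816 FPKM in 3xD5711A and listed at 0 in the other treated ones, Trpv6 was 62.5 FPKM in 3xD5734A, and S100g was 3146 FPKM in 3xD5720A.

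3xD5720A was also the high library for Rab30 (91.2 FPKM), Slc39a8 (12.9 FPKM), Acadl (335 FPKM), Lcn2 (265 FPKM) and the antimicrobial list, whose mean log2(FPKM + 1) was 8.90, against 7.19 to 7.41 in the other treated libraries. Deficient 3 was the high library for H2-Ab1 (488 FPKM), Cd74 (1113 FPKM), Krt18 (132 FPKM) and the keratin list (7.50 on the mean log2 scale, against 7.31 to 7.34). It was the low library for Erbb2 (19.5 FPKM) and for the lists of the receptor and its metabolism (2.70, against 3.39 to 3.52), phosphate transport (4.92, against 6.02 to 6.13), sugar-phosphate transport (3.30, against 3.72 to 3.77) and vitamin A handling (4.28, against 4.68 to 4.75).

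minusD5718A was the high library of its group for Tff2 (6685 FPKM), Pgc (39.9 FPKM), Gkn1 (557 FPKM), Acadl (122 FPKM), Arntl (5.99 FPKM) and the stomach list (7.14, against 1.10 to 1.55), and treated 1 the low one for the stomach list (1.450, against 6.21 to 6.75). Treated 1 was high for Rhebl1 (15.4 FPKM). 3xD5734A was low for Slc9a3 (16.7 FPKM) and for the exocrine pancreas list (5.64, against 10.4 to 10.5). Deficient 2 was high for adipocyte markers (4.58, against 3.26 to 3.44).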

How the results depend on the processing

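Of the counts, 1 gene higher and 2 lower by limma, 6 higher and 4 lower by the 2-fold rule and 0 differing from the colon, the number lower was the least stable. limma called 0 lower with a pseudocount of 0.1, a mean of at least 1 FPKM, at least 5 FPKM in 3 columns, quantile normalization, the naming set or Xist as a covariate, voom, or either naming set alone, 1 (Il10ra) in the 7-library table, and 6 without both Reg3b-high libraries. It called 2 higher with Xist as a covariate (adding Sbno1) and with array weights (adding Zfp131), 3 without both Reg3b-high libraries, and 0 with voom and within either naming set alone, where a lone library on one side is assumed to vary like the others; Cyp24a1 was under the filter in the serial columns. The 2-fold rule found 11 lower with a pseudocount of 0.1, 9 with 0.5, 1 with a mean of at least 1 FPKM, 0 with at least 5 FPKM, 2 with quantile normalization, and 19 higher and 35 lower without both Reg3b-high libraries. Leaving out 1 library at a time gave 1 to 2 genes higher, 0 to 2 lower, 6 to 16 higher and 4 to 31 lower by the 2-fold rule, and 0 to 1 differing from the colon; 16 and 31 were reached without deficient 3, 10 and 7 lower without 3xD5720A and 3xD5711A, and without treated 1 the 2 lower genes were Cd83 and Rdh5 and Cradd differed from the colon. The 2-fold rule gave no value without treated 1, without minusD5718A or in the 7-library table, since a naming set then lacks a group. At least 5 FPKM gave 1 gene differing from the colon, Slc37a2. The cause of these shifts was not tested, except that stricter filters test fewer genes and drop those near 1 FPKM. Groups with fewer libraries are also more easily apart, which raises counts by the 2-fold rule.

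Direction changed for list members outside the calls. With the naming set as a covariate Gkn1 was −0.21 and Pgc −0.025. Within serial columns Cd14 was −0.12, Cela2a 0.79, Cybrd1 0.17, Hmox1 −0.076, Lcn2 −0.95, Per1 −0.32, Pnlip 0.97 and Slc37a4 −0.29. Within 4-digit columns Alpi was −0.38, Gkn1 −0.40, Gsta3 −0.055, Pgc −0.22 and Tff2 −0.71. Leaving out 1 library at a time, Lcn2 ran from −0.15 (without 3xD5720A) to 2.19, Cela2a from −1.50 to 0.16 and Pnlip from −1.58 to 0.15 (the highest of each without 3xD5734A), and Alpi from −0.15 (without deficient 3) to 0.33. Without both Reg3b-high libraries Alpi was −0.014, Cd74 0.22 and H2-Ab1 0.10. Of the medians of the 43 lists, 693 of the values under other settings moved by less than the replicate spread and 38 by more. No paired analysis was possible because the columns carry no replicate numbers of the labels by which treated and deficient libraries could be matched; the comparison with the colon matched columns within a group by their own numbers.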
